A study of Mus musculus with 30 samples.

Results

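The genes described here are 10 of the protein-coding genes of the mouse mitochondrial genome, chosen by name (mt-Nd1, mt-Nd2, mt-Nd4, mt-Nd5, mt-Nd6, mt-Cytb, mt-Co1, mt-Co2, mt-Co3 and mt-Atp6), out of 49315 gene identifiers in the count table. They were measured by bulk RNA sequencing in the dissected hippocampus of 30 mice of the C57BL/6J strain. The mice were 7 TIMP2 KO females, 6 TIMP2 KO males, 7 WT females and 10 WT males. TIMP2 is a secreted inhibitor of matrix metalloproteinases, and the knockout was constitutive and not limited to a cell type or to the hippocampus. The labels gave no age for the sequenced mice. The 13 TIMP2 KO libraries held from 18345517 to 41081083 counts, and the 17 WT libraries from 19445246 to 32098386. As a check of the labels, Timp2 ranged from 130.0 to 170.9 CPM (counts scaled to a library of 1000000) in TIMP2 KO and from 256.4 to 380.4 CPM in WT mice, so the gene was lower in each TIMP2 KO mouse but its remaining transcript was still counted. Its log2 fold change was -0.999 ± 0.053 (SE), with an adjusted p of 7.62e-16 by the quasi-likelihood test of edgeR.

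The mitochondrial genome is a small circle, present in many copies in a cell, that encodes core subunits of the respiratory chain. Its heavy and light strands are transcribed as long precursors, from which the tRNAs that stand between many of the genes are cut. Most of the freed mRNAs receive a poly(A) tail. All other subunits of complexes I, III and IV and of the ATP synthase, and the whole of complex II, are encoded in the nucleus. Neurons depend heavily on oxidative phosphorylation, since ion pumping and synaptic transmission consume much ATP. Bulk tissue cannot separate fewer mitochondria-rich cells, fewer mitochondrial genomes and less RNA per genome.

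mt-Nd1, mt-Nd2, mt-Nd4, mt-Nd5 and mt-Nd6 encode membrane subunits of complex I, which passes electrons from NADH to ubiquinone. mt-Cytb encodes cytochrome b of complex III. mt-Co1, mt-Co2 and mt-Co3 encode the catalytic core of cytochrome c oxidase, or complex IV, and mt-Atp6 encodes the membrane subunit of the ATP synthase that forms its proton channel. In the GRCm38 build, mt-Nd1 lies at chrM:2751-3707, mt-Nd2 at chrM:3914-4951, mt-Co1 at chrM:5328-6872, mt-Co2 at chrM:7013-7696 and mt-Atp6 at chrM:7927-8607. Further along the genome, mt-Co3 lies at chrM:8607-9390, mt-Nd4 at chrM:10167-11544, mt-Nd5 at chrM:11742-13565 and mt-Cytb at chrM:14145-15288. These 9 genes lie on the plus strand of the annotation. mt-Nd6, at chrM:13552-14070, lies on the minus strand and overlaps the end of mt-Nd5. Each of the 10 genes is annotated with a single exon and no intron.

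Copies of these genes in the nuclear genome bear on how their reads could be counted. A comparison with the annotated GENCODE M21 transcripts found 7 pseudogenes on the minus strand of chromosome 1, between chr1:24611535-24616197, that copy the stretch chrM:6390-11042. This block of 4663 bases holds a copy of 681 of the 684 bases of mt-Co2 (Gm28661), of 678 of the 681 bases of mt-Atp6 (Gm10925) and of 783 of the 784 bases of mt-Co3 (Gm28437), each without a mismatch. It also holds bases 1 to 876 of the 1378 bases of mt-Nd4 (Gm28439), without a mismatch, and bases 1063 to 1545 of mt-Co1 (Gm29216), with 1 mismatch. mt-Nd1, mt-Nd2, mt-Nd5, mt-Nd6 and mt-Cytb have no copy there, and their closest other copies of at least 200 bases, where present, were 92.9% to 96.7% identical. The sequences below are shown because they mark where a read can and cannot be assigned. The opening 60 bases of mt-Co2 (chrM:7013-7072, plus strand) are followed by the same stretch of the chromosome 1 copy Gm28661 (chr1:24615506-24615565, minus strand), which has no difference. The chromosome 2 copy Gm13341 (chr2:22587903-22587962, minus strand) differs by C25T and G57A, counted from 1 at the start of mt-Co2 and shown in capitals. From mt-Co1, 60 bases (chrM:6390-6449, plus strand) stand above the start of the copy in Gm29216 (chr1:24616129-24616188, minus strand), with the only mismatch, A1066T, in capitals. From mt-Nd4, 60 bases (chrM:11013-11072, plus strand) are given with those beyond the end of the annotated copy in capitals.
mt-Co2: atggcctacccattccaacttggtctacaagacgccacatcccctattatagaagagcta
Gm28661: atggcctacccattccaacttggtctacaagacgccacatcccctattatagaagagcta
Gm13341: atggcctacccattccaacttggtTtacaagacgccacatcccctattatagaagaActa
mt-Co1: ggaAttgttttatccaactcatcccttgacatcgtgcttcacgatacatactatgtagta
Gm29216: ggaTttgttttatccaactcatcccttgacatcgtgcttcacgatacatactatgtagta
mt-Nd4: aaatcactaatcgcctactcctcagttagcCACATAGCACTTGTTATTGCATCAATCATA

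The levels of the 10 genes fell into 2 ranges that followed the identical copies. Per length, over all 30 mice, mt-Co1 was at 8972 ± 748 CPM per kb (SD), mt-Nd1 at 6284 ± 520 and mt-Cytb at 5158 ± 533. mt-Nd2 followed at 3694 ± 467 CPM per kb, mt-Nd6 at 2351 ± 186, mt-Nd5 at 2265 ± 255 and mt-Nd4 at 1850 ± 272. The 3 genes with an identical copy of nearly their whole length were far below, with mt-Co3 at 6.87 ± 1.14 CPM per kb, mt-Atp6 at 6.04 ± 1.10 and mt-Co2 at 4.44 ± 0.665. The order of neighbouring genes was the same in 30 of 30 mice for mt-Co1 above mt-Nd1, mt-Nd1 above mt-Cytb, mt-Cytb above mt-Nd2, mt-Nd5 above mt-Nd4 and mt-Nd4 above mt-Co3. It held in 29 mice for mt-Nd2 above mt-Nd6, and in 27 mice for mt-Nd6 above mt-Nd5, whose means differed by less than 1 SD. Among the 3 low genes, it held in 26 mice for mt-Co3 above mt-Atp6, whose means also differed by less than 1 SD, and in 29 mice for mt-Atp6 above mt-Co2.

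The other 3 protein-coding genes of the mitochondrial genome showed the same relation to the copied stretch. mt-Nd4l, with an identical copy of 294 of its 297 bases, was at 10.4 CPM per kb, and mt-Atp8, which lies inside the stretch and had no annotated copy of at least 200 bases, was at 6.95 CPM per kb. mt-Nd3, whose copy carries 1 mismatch in 345 bases, lay between the ranges at 138 CPM per kb. For mt-Nd4, division by the 502 bases outside the copy in place of the whole gene gave 5080 CPM per kb. The same division gave 1013, 5384 and 1372 CPM per kb for mt-Co2, mt-Co3 and mt-Atp6, but on only 3, 1 and 3 bases. It assumes that no read of the copied part was counted, which was not tested. The low values of mt-Co2, mt-Co3 and mt-Atp6 are therefore given as uncertain levels of these genes, since how reads with several matching positions were counted is not given in the sources used here, and its part was not tested. The rRNA genes mt-Rnr1 and mt-Rnr2 are not used here.

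**Figure D1:**
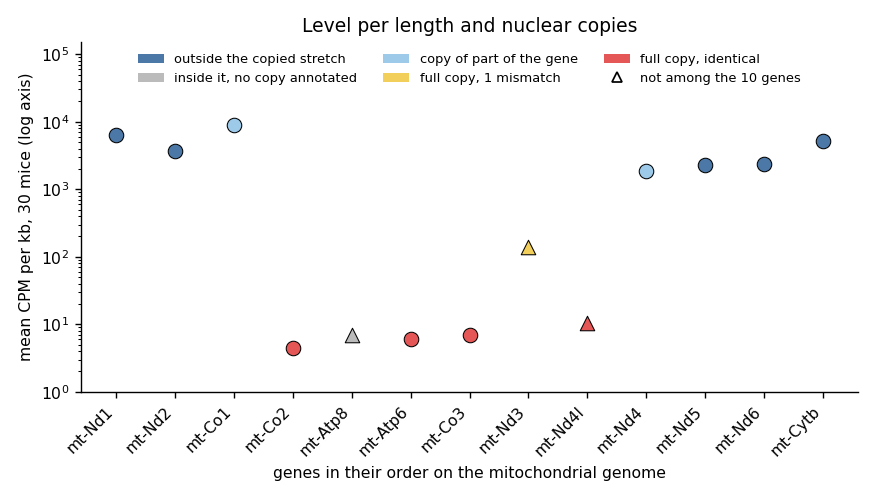
Mean CPM per kb over the 30 mice, on a log axis, for the 13 protein-coding mitochondrial genes in genome order, coloured by their copy on chromosome 1, with circles for the 10 genes described and triangles for the other 3. The genes with an identical full copy lie between 4.44 and 10.4 CPM per kb, mt-Nd3 with its 1 mismatch at 138, and the genes outside the stretch or copied in part between 1850 and 8972.

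The 10 genes took between 2.19% and 4.13% of all gene counts in a mouse. In TIMP2 KO mice the share had a lowest value of 3.44%, a median of 3.71% and a highest value of 4.13%, and in WT mice these were 2.19%, 3.93% and 4.08%. The mean was 3.76% ± 0.19 (SD, n = 13) in TIMP2 KO and 3.74% ± 0.44 (SD, n = 17) in WT mice, and all WT values other than that of mouse 6 lay within the range of the TIMP2 KO mice. By sex, the mean was 3.74% ± 0.23 (n = 7) in TIMP2 KO females, 3.76% ± 0.16 (n = 7) in WT females, 3.79% ± 0.15 (n = 6) in TIMP2 KO males and 3.72% ± 0.57 (n = 10) in WT males. The larger SD of the WT males came from 1 mouse, mouse 6, at 2.19% (95% Wilson interval 2.18% to 2.20%, counting error only). Without it, the WT mean was 3.83% ± 0.19 (n = 16) and that of the WT males 3.89% ± 0.21 (n = 9). The share had a Pearson r of 0.10 with the log2 of the total count over the 29 other mice, given as a description. The sum was carried by few genes: mt-Co1 held 37.0% ± 1.17 (SD, n = 30) of it, mt-Nd1 16.1% ± 0.517 and mt-Cytb 15.7% ± 0.274, whereas mt-Co2, mt-Co3 and mt-Atp6 held 0.00809%, 0.0143% and 0.0109%.

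**Figure D2:**
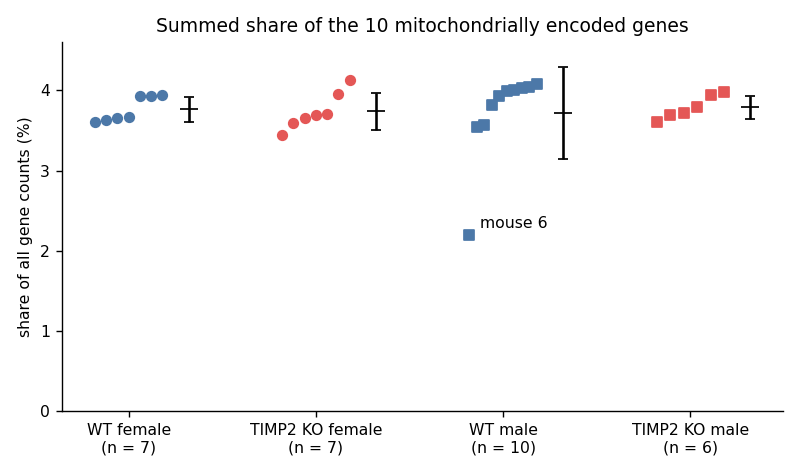
Share of all gene counts (%) on the 10 genes in each mouse, by sex and genotype, with circles for females, squares for males, and the mean ± SD of each group as a black bar. Mouse 6, a WT male, lies at 2.19%, and the other 29 mice lie between 3.44% and 4.13%.

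The comparison of TIMP2 KO with WT asked whether loss of TIMP2 changed the RNA of the mitochondrially encoded subunits. Of the 10 genes, 0 passed an unadjusted p under 0.05 in edgeR, and 0 passed in DESeq2 and in limma voom with sample weights. Over all 16486 genes tested, 829 (5.03%) passed that threshold, 407 (2.47%) with a higher and 422 (2.56%) with a lower level in TIMP2 KO, and 9 (0.0546%) passed an adjusted p under 0.05. The estimates were higher in TIMP2 KO for 5 genes and lower for 5, with a median log2 fold change of 0.0059 beside 0.00011 over all genes tested. The smallest p was 0.410, and the adjusted p was 0.998 for all 10 genes by edgeR with Benjamini-Hochberg adjustment. Choroid plexus markers were high in some of the TIMP2 KO mice: 5 of 6 tested were higher in TIMP2 KO at that threshold, and the summed level of the list ranged from 134 to 1143 CPM in TIMP2 KO and from 129 to 181 CPM in WT mice. Ttr, the defining choroid plexus transcript, had an adjusted p of 0.0326 by edgeR, but its lowest, median and highest level were 1.58, 5.00 and 635 CPM in TIMP2 KO and 0.269, 3.85 and 36.5 CPM in WT mice. The medians of Enpp2 were 128 CPM in TIMP2 KO and 122 CPM in WT mice, so the groups differed mostly at their upper end. The part of that tissue in the values of the 10 genes was not tested.

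Among the complex I genes, mt-Nd1 had a lowest, median and highest level of 5441, 6007 and 6597 CPM in TIMP2 KO and of 3923, 6020 and 6463 CPM in WT mice. The means were 6065 ± 337 (SD, n = 13) and 5974 ± 600 (SD, n = 17), and the log2 fold change was 0.022 (95% interval -0.068 to 0.11). The groups overlapped, with the lowest value in mouse 6. mt-Nd2 was at 3457, 3847 and 4271 CPM in TIMP2 KO and at 1550, 3839 and 4238 CPM in WT mice, with a log2 fold change of 0.040 (-0.11 to 0.20). mt-Nd4 was at 2339, 2624 and 2846 CPM in TIMP2 KO and at 707, 2623 and 2819 CPM in WT mice, with a log2 fold change of 0.047 (-0.15 to 0.25). For both genes the medians of the genotypes almost coincided, and the WT minimum was again mouse 6.

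mt-Nd5 was at 3764, 4107 and 4495 CPM in TIMP2 KO and at 2109, 4306 and 4749 CPM in WT mice, with a log2 fold change of -0.012 (-0.14 to 0.12). mt-Nd6, the only one of the 10 genes on the minus strand, was at 1102, 1212 and 1324 CPM in TIMP2 KO and at 941, 1236 and 1396 CPM in WT mice, with a log2 fold change of -0.026 (-0.11 to 0.056). These genes overlap on opposite strands, and the strand setting of the counting is not given in the sources used here. If strand was not used, reads of the shared bases cannot be told apart. Reads over the rest of mt-Nd6 could then also come from the precursor of the other strand, so its level is uncertain. The libraries were made with poly(A) selection, and how far the mRNA of mt-Nd6 carries a tail was not tested. Its level may therefore not compare with those of the other genes. In both mt-Nd5 and mt-Nd6, the median was lower in TIMP2 KO by less than the SD of either genotype.

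mt-Cytb of complex III was at 5395, 5869 and 6432 CPM in TIMP2 KO and at 3170, 6121 and 6655 CPM in WT mice, with a log2 fold change of -0.0051 (-0.12 to 0.11). Of the complex IV genes, mt-Co1 was at 12240, 13600 and 15013 CPM in TIMP2 KO and at 9233, 14187 and 15227 CPM in WT mice, with a log2 fold change of -0.0086 (-0.098 to 0.081). The ranges of the genotypes overlapped for both genes. The remaining complex IV genes rested on few counts, with a median of 81 per mouse for mt-Co2 and 146 for mt-Co3, beside 410111 for mt-Co1.

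mt-Co2 was at 2.30, 3.05 and 3.44 CPM in TIMP2 KO and at 1.59, 3.19 and 3.75 CPM in WT mice, with a log2 fold change of -0.045 (-0.21 to 0.12). mt-Co3 was at 4.33, 5.44 and 6.94 CPM in TIMP2 KO and at 2.25, 5.32 and 7.36 CPM in WT mice, with a log2 fold change of 0.017 (-0.16 to 0.20). mt-Atp6 of the ATP synthase was at 3.23, 4.20 and 5.79 CPM in TIMP2 KO and at 1.28, 4.13 and 4.73 CPM in WT mice, with a log2 fold change of 0.083 (-0.12 to 0.29). The groups of these 3 genes overlapped as the others did.

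Leaving out mouse 6 narrowed every interval and moved every estimate down. Then 9 of 10 genes were lower in TIMP2 KO, with log2 fold changes from -0.084 for mt-Co2 to 0.028 for mt-Atp6 and a median of -0.034, and the signs of mt-Nd1, mt-Nd2, mt-Nd4 and mt-Co3 turned. In edgeR, 0 of 10 passed an unadjusted p under 0.05 without mouse 6, and likewise 0 in DESeq2. The smallest unadjusted p was 0.0885, for mt-Nd5, with a log2 fold change of -0.055 (95% interval -0.12 to 0.0087) and an adjusted p of 0.973 by edgeR. For the 7 well-counted genes (all but mt-Co2, mt-Co3 and mt-Atp6), the 95% intervals of the log2 fold change without mouse 6 lay between -0.12 and 0.048. With all mice they lay between -0.15 and 0.25.

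**Figure D3:**
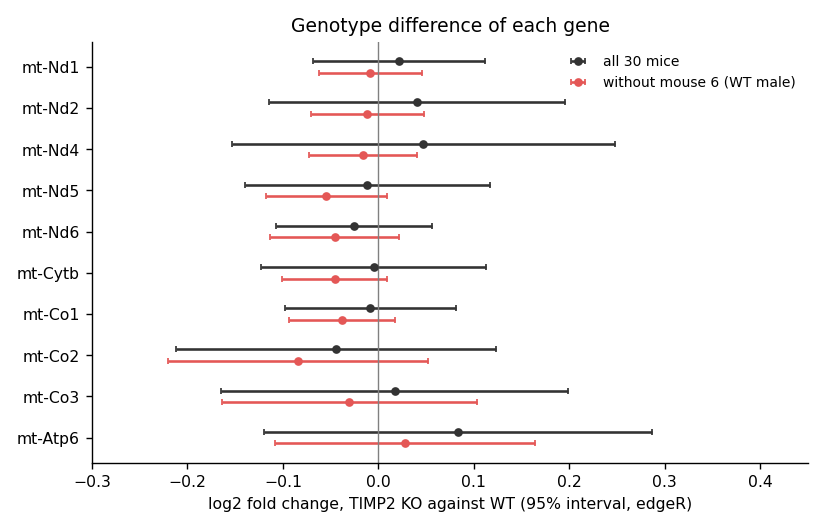
Log2 fold change of TIMP2 KO against WT for each of the 10 genes, with 95% intervals from edgeR, over all 30 mice (black) and without mouse 6 (red). All intervals include 0, and the point estimates lie between -0.045 and 0.083 with all mice and between -0.084 and 0.028 without mouse 6.

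The difference between the sexes in the effect of genotype was tested with an interaction term. Of the 10 genes, 0 passed an unadjusted p under 0.05 in edgeR and 0 in DESeq2, beside 423 (2.57%) of all genes tested in edgeR. The smallest p for the 10 genes was 0.451. In females alone the log2 fold changes lay between -0.063 and 0.083, with 9 of 10 below 0, and in males alone between -0.050 and 0.090, with 8 of 10 above 0. Without mouse 6, the estimates of the males lay between -0.11 and 0.0034, with 9 of 10 below 0, and the smallest p of the interaction was 0.212. Neither sex alone had a gene past an unadjusted p under 0.05.

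Mouse 6, a WT male with a total of 22427144 counts, was below the other 29 mice in each of the 10 genes. Beside the mean of the other 9 WT males, its CPM was 26.7% for mt-Nd4, 31.0% for mt-Atp6 and 38.9% for mt-Nd2. It was 42.7% for mt-Co3, 48.5% for mt-Nd5, 49.8% for mt-Co2 and 51.5% for mt-Cytb. It was nearest to the others in mt-Nd1 at 63.6%, mt-Co1 at 63.7% and mt-Nd6 at 74.2%. The genes were thus not lowered in equal measure: mt-Nd4 took 3.27% of the summed counts of the 10 genes in mouse 6 and between 6.53% and 7.21% in the other mice, whereas mt-Nd6 took 4.35% there and between 2.88% and 3.42% in the others. On a log2 scale with counts scaled to the nuclear genes, mouse 6 differed from the other WT males by between -1.90 and -0.43 over the 10 genes. Of 8137 nuclear genes with a mean of at least 500 counts, 26 (0.320%) differed by more than 0.5 in mouse 6 and 0 by more than 1, with a range from -0.94 to 0.78. In the other mice between 2 and 141 of these nuclear genes, with a median of 10, differed by more than 0.5 from the rest of their group, and the highest number was in mouse 18, a TIMP2 KO male.

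The nuclear copies on chromosome 1 and those on chromosome 2 differed in mouse 6. The chromosome 1 copies Gm10925 of mt-Atp6, Gm28437 of mt-Co3 and Gm29216 of mt-Co1 had 54, 31 and 29 counts in mouse 6, beside ranges of 146 to 208, 81 to 135 and 57 to 96 in the other WT males. Gm28661 of mt-Co2 had 65 beside 74 to 135, and Gm28439 of mt-Nd4 had 35 beside 42 to 79. The log2 differences of the copies without a mismatch were -1.49 (Gm10925), -1.52 (Gm28437), -0.54 (Gm28661) and -0.62 (Gm28439). Gm29216, with 1 mismatch, was at -1.18, so within chromosome 1 the difference did not follow likeness. What lowered these counts was not tested. The chromosome 2 copies, which differ from the mitochondrial sequence at more bases, were not lower: Gm13341 of mt-Co2 had 68 counts beside 52 to 104, and Gm13340 of mt-Co1 had 101 beside 83 to 148. Of the other 22 mitochondrial genes tested, 19 of them tRNA genes, 12 were lower in mouse 6 than the mean of the other WT males on the log2 scale, with a median difference of -0.19. The tRNA genes went both ways, from -1.69 for mt-Tv to 1.18 for mt-Tr. mt-Nd4l had 32 counts in mouse 6 beside 57 to 113 in the other WT males, mt-Nd3 had 842 beside 917 to 1861 and mt-Atp8 had 3 beside 30 to 62. Over all 30 mice, 0 of these 22 genes passed an unadjusted p under 0.05 between genotypes in edgeR, with a smallest p of 0.0679.

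**Figure D4:**
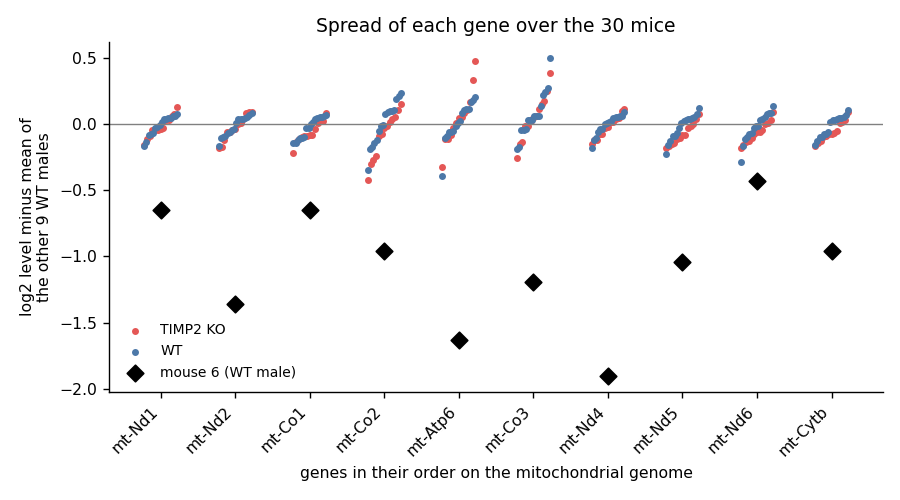
Log2 level of each of the 10 genes, scaled to the counts on nuclear genes, minus the mean of the 9 WT males other than mouse 6, with red dots for TIMP2 KO, blue dots for WT mice and a black diamond for mouse 6. Mouse 6 lies between -1.90 (mt-Nd4) and -0.43 (mt-Nd6), below all other mice in each gene.

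Among the other 29 mice, the 7 well-counted genes varied little and together. The SD of their log2 level lay between 0.076 and 0.098, beside a spread expected from counting alone of 0.0023 to 0.0079. mt-Co2, mt-Co3 and mt-Atp6 had SDs of 0.17 each, beside 0.16, 0.12 and 0.14 from counting alone. Over the 29 mice, the 21 pairs of the 7 genes had a Pearson r between 0.56 and 0.94 with a median of 0.83, given as a description since the genes share each library. The highest values were 0.94 for mt-Nd1 with mt-Nd2, which are neighbours on the genome, 0.94 for mt-Nd5 with mt-Nd6, which overlap, and 0.93 for mt-Cytb with mt-Co1, which are not neighbours. The lowest was 0.56, for mt-Nd2 with mt-Nd6. The 3 low genes had an r between 0.27 and 0.43 with each other and between 0.018 and 0.46 with the 7. With mouse 6 included, the ranges were 0.70 to 0.99 within the 7 and 0.71 to 0.83 within the 3.

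The nuclear subunits are the partners of these genes in the same complexes. Of 83 listed, 82 were in the table and 81 were tested, and 2 passed an unadjusted p under 0.05 in edgeR, both higher in TIMP2 KO (2 of 81 beside 5.03% of all genes tested), with a median log2 fold change of 0.005. Ndufa10, an accessory subunit of complex I, was at 155 ± 5.89 CPM (SD, n = 13) in TIMP2 KO and 150 ± 4.83 CPM (SD, n = 17) in WT mice, with a log2 fold change of 0.046 ± 0.020 (SE) and an adjusted p of 0.952 by edgeR. Cox6b2, an isoform of a complex IV subunit known from testis, was at 1.24 ± 0.387 CPM and 1.02 ± 0.255 CPM, with a log2 fold change of 0.30 ± 0.14 (SE) and an adjusted p of 0.973. By complex, 1 of 36 genes of complex I, 0 of 4 of complex II, 0 of 9 of complex III, 1 of 15 of complex IV and 0 of 17 of the ATP synthase passed.

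The most abundant nuclear subunits of complexes II, III and IV and of the ATP synthase showed no difference past the threshold in edgeR. Sdha, the flavoprotein of complex II, was at 414 ± 9.36 CPM (SD, n = 13) in TIMP2 KO and 415 ± 9.46 CPM (SD, n = 17) in WT mice. Uqcrc1 of complex III was at 215 ± 9.51 and 213 ± 11.8 CPM, and Cox4i1 of complex IV at 417 ± 19.5 and 414 ± 23.7 CPM. Atp5b, the catalytic subunit of the ATP synthase, was at 1153 ± 34.0 and 1144 ± 45.6 CPM. The log2 fold changes of these 4 genes lay between -0.0051 and 0.014.

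The factors that copy, transcribe and process the mitochondrial genome were counted in the same way, beside the 5.03% of all genes tested that passed. Of 12 genes of mitochondrial DNA maintenance and transcription, 0 passed an unadjusted p under 0.05 in edgeR. Of 18 genes of mitochondrial RNA processing, Pnpt1, a polynucleotide phosphorylase of RNA import and degradation, was higher in TIMP2 KO with a log2 fold change of 0.11 ± 0.034 (SE) and an adjusted p of 0.744. Of 8 regulators of mitochondrial biogenesis, 1 was higher and 1 lower: Esrra, a nuclear receptor that induces oxidative genes, had a log2 fold change of 0.10 ± 0.031 (adjusted p = 0.744 by edgeR), and Nrf1, a transcription factor of respiratory genes, had -0.11 ± 0.039 (adjusted p = 0.882). Of 10 genes that reflect mitochondrial mass, Cycs, which encodes cytochrome c, was higher with a log2 fold change of 0.052 ± 0.022 (adjusted p = 0.952 by edgeR). The count of 1 of 18 was near the share over all genes. The counts of 1 of 10, and of 1 higher and 1 lower of 8, were above it in short lists. None of these genes passed the adjusted threshold.

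Across mice, the level of the 10 genes was set beside that of the 81 nuclear subunits, each as the mean log2 level scaled to the counts on nuclear genes and given as a description with no p. Over all 30 mice, Pearson r was -0.33 and Spearman rho -0.18. Without mouse 6, r was -0.15, and it was 0.11 for the 7 well-counted genes without that mouse. In the TIMP2 KO mice, which do not include mouse 6, r was -0.38 and rho -0.44 (n = 13). In WT mice r was -0.42 (n = 17), and it was 0.14 without mouse 6 (n = 16), so the sign turned with that mouse in WT mice. These values within a genotype are for all 10 genes, including the 3 low-count ones, and none was computed for the 7 well-counted genes. The negative r in TIMP2 KO is therefore not a statement about those 7 genes. Without the 2 mice farthest from the median of the 10 genes, which were mice 6 and 31, r was -0.11 (n = 28). In mouse 6 the summed level of the nuclear subunits was 11770 CPM, the highest of all mice, beside 10449 to 11171 CPM in the other WT males, while the 10 genes summed to 21638 CPM beside 35657 to 41308 CPM.

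**Figure D5:**
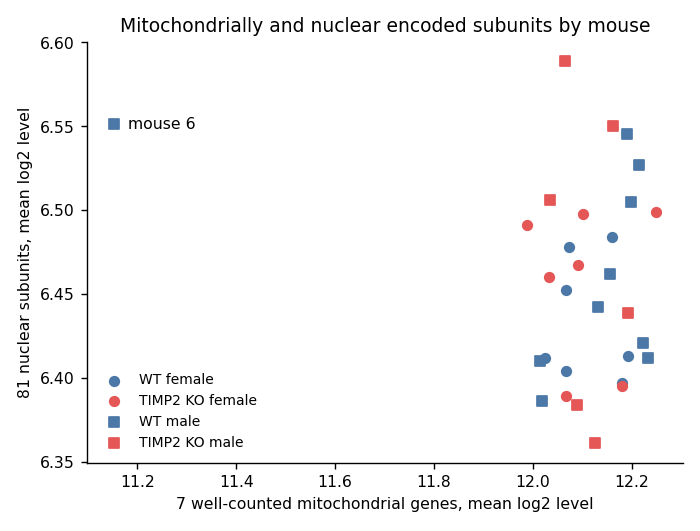
Mean log2 level of the 81 nuclear subunits against that of the 7 well-counted mitochondrial genes in each mouse, both scaled to the counts on nuclear genes, with colours for genotype (red TIMP2 KO, blue WT) and shapes for sex (circles female, squares male). Mouse 6 stands apart on the horizontal axis. On the vertical axis it lies at 6.552, just above the other WT mice (highest 6.545) and below the highest value, 6.589 in a TIMP2 KO male. Without mouse 6, r was 0.11.

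Cell type markers were set beside the 10 genes. In mouse 6 the summed neuron markers were at 7040 CPM beside 7277 to 7642 CPM in the other WT males, and the astrocyte markers at 4757 beside 4789 to 5660 CPM. Oligodendrocyte markers were at 3299 beside 2467 to 3818 CPM and microglia markers at 419 beside 395 to 455 CPM. By summed CPM, neuron and astrocyte markers were just below the range of the other WT males, and the other lists of markers lay inside it. By mean log2 level, neuron markers were again just below it (9.30 beside 9.31 to 9.38), astrocyte markers lay inside it (8.17 beside 8.13 to 8.31) and meningeal fibroblast markers were below it (2.88 beside 2.92 to 3.45). Over the 29 mice without mouse 6, the mean level of the 7 well-counted genes had an r of 0.42 with the astrocyte markers, 0.45 with microglia markers, 0.46 with endothelial markers and 0.11 with neuron markers. It had an r of -0.046 with oligodendrocyte, -0.14 with red blood cell, 0.15 with choroid plexus and 0.14 with meningeal fibroblast markers. The part of the cell composition in these values was not tested.

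The genes outside the mitochondrial genome whose level over the 30 mice was most like that of the 10 genes, of 16454 compared, were Gm10925 (r = 0.93), Rpl29 (0.90), Atp5g2 (0.88), Gm28437 (0.88) and Gm26723 (0.86). Gm10925 and Gm28437 are the identical copies of mt-Atp6 and mt-Co3, Rpl29 encodes a ribosomal protein, and Atp5g2 encodes a c subunit of the ATP synthase. The lowest values were those of Mir703 (-0.82), Ywhae (-0.80), Tspyl1 (-0.80), Hprt (-0.79) and Trim28 (-0.77). These patterns rested on mouse 6: without it the same genes had an r of 0.48, 0.28, 0.24, 0.58 and 0.39 at the high end and between -0.36 and -0.26 at the low end. Over the 29 mice, the highest were Fads1 (0.75) and Hpgds (0.72) and the lowest Mtmr6 (-0.68) and Gm17552 (-0.67), beside a range from -0.37 to 0.36 between the 5th and the 95th percentile of all genes compared.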

How the data were processed

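The libraries of the 30 hippocampi were made with poly(A) selection and read as paired ends. Per the labels, the submitters' processing notes name Trimmomatic 0.36, STAR 2.5.2b, featureCounts of Subread 1.5.2 and GRCm38 (mm10). The deposited values are raw counts per gene and mouse, with no normalization by the authors. The strand setting and the handling of reads that match several positions are not given in the sources used here. All columns were matched to a mouse by its title. Mice were separate animals. The study's methods name the date of isolation or harvest as a batch in its network analysis. The labels used here give no dates, so no fit has a batch term, and its part in the values was not tested.

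The 10 genes and all lists were chosen with earlier results of these data known. Symbols and positions came from GENCODE M21. Genes kept by the edgeR 4.0.16 filter (16486) were tested between genotypes by its quasi-likelihood test with TMM factors in R 4.3.3, over all 30 mice, and adjusted by Benjamini-Hochberg over all genes tested. CPM used TMM-scaled totals. Log2 levels of single mice used a prior count of 2 and totals of nuclear genes. Beside the 10 genes, the genes named were list members with an unadjusted p under 0.05, the most abundant subunit of each complex (that of complex I is not reported here) and the 5 highest and 5 lowest correlations. Of the correlations without mouse 6, 2 of each were named. Copies were sought with BLAST+ 2.17.0 at 90% identity over at least 200 bases. Alternatives were DESeq2 1.42.0, limma 3.58.1 voom, RLE factors, other filters and library sizes, sex as a covariate, each sex alone and leaving out each mouse. Those without mouse 6, apart from leaving it out of the main test, were chosen after seeing the data. The fits were tested on simulated data. The share of a mouse has a 95% Wilson interval, which covers counting error only.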

Additional observations from a re-analysis of the deposited data

Results flagged for a closer look

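In a group of 4 to 10 mice, a mouse was taken to stand apart when its gap to the nearest of the others was larger than Dixon's 95% critical value for the group's range. Over the 10 genes, their summed share and the mean level of the nuclear subunits, 48 groups were examined and 12 held such a mouse, where chance flags about 1 in 20. Mouse 6, a WT male, accounted for 11 of the 12. The groups are not independent, since they hold the same mice and genes that vary together, so these 11 flags come from 1 library. Its summed share was 2.19%, beside 3.54% to 4.08% in the other WT males. Its log2 level was 11.99 for mt-Nd1 (others 12.47 to 12.72), 10.65 for mt-Nd2 (11.84 to 12.10), 9.52 for mt-Nd4 (11.24 to 11.51) and 11.09 for mt-Nd5 (11.97 to 12.26). It was 9.93 for mt-Nd6 (10.19 to 10.49), 11.68 for mt-Cytb (12.48 to 12.74) and 13.22 for mt-Co1 (13.73 to 13.94). Among the low genes it was 0.78 for mt-Co2 (1.39 to 1.98), 1.26 for mt-Co3 (2.27 to 2.70) and 0.48 for mt-Atp6 (2.01 to 2.28). The nuclear subunits set apart no mouse. In the WT females, mouse 16 had a log2 level of 1.72 for mt-Atp6, beside 2.10 to 2.32 in the others, a gene with a median of 116.5 counts per mouse. What lowered these values was not tested.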

How the results depend on the processing

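No gene of the 10 passed an unadjusted p under 0.05 between genotypes in edgeR, nor under any of the 13 other settings or with any mouse left out, and the interaction with sex called none under its 4 settings. The number of nuclear subunits past that threshold, 2, was 1 with voom, 1 with sex as a covariate without mouse 6, 1 with DESeq2 without mouse 6, 0 in males alone and 0 in males alone without mouse 6, and between 0 and 2 with each mouse left out. The sign of the uncalled log2 fold changes turned in 20 of 130 values over the other settings. In females alone they were -0.013 for mt-Nd1, -0.013 for mt-Nd2, -0.00071 for mt-Nd4 and -0.063 for mt-Co3, and in males alone 0.0014 for mt-Nd5, 0.0100 for mt-Cytb and 0.0021 for mt-Co1. With sex as a covariate mt-Co3 was at -0.0036. Without mouse 6, sex as a covariate gave -0.0039 for mt-Nd1, -0.0062 for mt-Nd2, -0.015 for mt-Nd4 and -0.044 for mt-Co3, and DESeq2 gave -0.0089, -0.012, -0.016 and -0.032. Males alone without mouse 6 gave -0.00048 for mt-Nd2, -0.030 for mt-Nd4, -0.027 for mt-Co3 and -0.047 for mt-Atp6. With each mouse left out, the log2 fold change lay between -0.0083 and 0.034 for mt-Nd1, -0.012 and 0.054 for mt-Nd2, -0.016 and 0.059 for mt-Nd4, -0.055 and 0.0021 for mt-Nd5, -0.046 and 0.0068 for mt-Cytb, -0.038 and 0.0052 for mt-Co1, and -0.030 and 0.052 for mt-Co3. The difference in summed share, 0.024 percentage points, was -0.22 between medians, -0.024 in females alone and -0.10 in males without mouse 6. It lay between -0.073 (without mouse 6) and 0.050 with each mouse left out, and was also below 0, at -0.0069, without TIMP2 KO female replicate 4. All of these moved by less than 0.35, the SD within genotypes with mouse 6 included, which that mouse enlarged. The SD was 0.19 in TIMP2 KO and 0.19 in WT without mouse 6, and the move to -0.22 between medians was larger than that. The relation to the nuclear subunits, r = -0.33 (Fisher 95% interval -0.62 to 0.033), left that interval in WT mice without mouse 6 at 0.14 and for the 7 well-counted genes without mouse 6 at 0.11. The causes of these changes were not tested. No paired analysis was possible because the labels give the groups no shared replicate numbers. Low counts limit what can be said of mt-Co2, mt-Co3 and mt-Atp6, with medians of 81 to 146 per mouse.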
